A study of Homo sapiens with 6 samples.

Results

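The genes described here form the transcriptional arm of the ATF4 stress response and the amino acid supply it serves, measured in RBE cells after targeting of KCNQ3. The set holds 48 of the 16200 genes of the deposited table. It is made of 31 named genes and of the 17 cytosolic aminoacyl-tRNA synthetase genes whose symbols have at least 4 letters and end in ARS or ARS1. By role it comprises 16 regulators, 9 amino acid synthesis enzymes, 6 amino acid transporters and 17 synthetases. The rule that picks them uses gene symbols only, but the members were chosen with earlier results of these data known.

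RBE is an established human cholangiocarcinoma cell line, a model of bile duct cancer. RNA-seq compared 3 libraries labelled NC with 3 labelled sgKCNQ3, with no treatment named in the labels, and the single comparison asks how a guide against KCNQ3, a voltage-gated potassium channel subunit, changes the transcriptome. What NC carried, the position of the guide, whether it directed a nuclease or a repressor, and whether the cells were 1 clone or a pool were not given in the sources used here. Since the 3 libraries of a group are not stated to be separate cultures, p-values measure the spread between these libraries, which may be technical. In bulk RNA, fewer cells with a transcript and less transcript per cell cannot be told apart.

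Cells that run short of amino acids, accumulate misfolded proteins in the endoplasmic reticulum or have damaged mitochondria phosphorylate the translation factor eIF2 alpha through dedicated kinases. General translation then slows while ATF4, a basic leucine zipper (bZIP) transcription factor, is translated more efficiently. ATF4 pairs with C/EBP family partners and activates genes for amino acid import, amino acid synthesis and tRNA charging, and under prolonged stress the factor CHOP. Much of this control acts on translation and on phosphorylation, which RNA-seq does not measure.

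ATF4 and C/EBP partners bind a composite site, the C/EBP-ATF response element, written here as TGATGNAA. Promoter windows from RefSeq (GRCh38.p14), 250 bases before to 50 bases after the start site, were at hand for 37 of the 48 genes and were searched on both strands. The letters occurred in 11 of the 37 windows (29.7%), against 3.67% of all 27305 windows and 2.05% of the 13007 windows of genes in the deposited table. They occurred in 6 of 13 synthetase windows, 2 of 14 regulator windows, 1 of 5 synthesis windows and 2 of 5 transporter windows. Because the set was put together as genes of the ATF4 response, these shares describe it and are not a test. Only windows with a match are printed, so the letters of TGATGNAA other than N are alike through the search itself. Capitals mark the match, and each sequence reads 5′ to 3′ on the strand that carries TGATGNAA.
ATF3: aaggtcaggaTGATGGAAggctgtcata
CHAC1: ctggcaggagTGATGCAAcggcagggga
ASNS: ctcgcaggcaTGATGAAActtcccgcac
SLC7A1: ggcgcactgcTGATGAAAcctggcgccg
AARS1: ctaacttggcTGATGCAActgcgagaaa
CARS1: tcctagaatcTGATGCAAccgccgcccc
IARS1: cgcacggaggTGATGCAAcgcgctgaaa
MARS1: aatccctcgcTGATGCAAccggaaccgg
NARS1: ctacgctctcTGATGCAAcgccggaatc
TARS1: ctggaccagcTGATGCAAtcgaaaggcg

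All 6 synthetase windows read TGATGCAA at the match, as did CHAC1, while ASNS and SLC7A1 read TGATGAAA and ATF3 read TGATGGAA. The ASNS window lies at chr7:97872459-97872486 on the minus strand, with the match starting 68 bases before the start site of the gene, which encodes asparagine synthetase. The ATF3 window is chr1:212565206-212565233 (plus strand, match at -191 from the start site) and the CHAC1 window chr15:40953252-40953279 (minus strand, -209). The SLC7A1 window is chr13:29595664-29595691 (minus strand, 8 bases into the transcript). Among the synthetases, the matches of CARS1 (chr11:3057408-3057435, plus strand, -2), MARS1 (chr12:57488054-57488081, minus strand, -4), IARS1 (chr9:92293693-92293720, plus strand, -13), TARS1 (chr5:33440957-33440984, minus strand, 3) and NARS1 (chr18:57621805-57621832, minus strand, 15) all lie within 15 bases of the start site. The AARS1 match lies further out (chr16:70289676-70289703, plus strand, -187). Positions are those of the first base of the match along the gene, with the start site as 1 and the base before it as -1. SLC3A2 also has a match, too near the end of its window to print with its flanks. A cAMP response element, TGACGTCA, was found in 1 of the 37 windows (2.70%), that of PPP1R15A at -58. The share was 1.98% of all windows and 2.81% of the windows of genes in the deposited table. The longer ER stress element was in none of the 37 and in 0.0806% of all windows. A match is a run of letters and not a measured binding site.

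Total estimated counts per library ranged from 15601283 to 16089500. KCNQ3 was counted at 256, 257 and 252 in NC and at 222, 206 and 191 in sgKCNQ3, a log2 fold change of -0.33 (SE 0.0841, edgeR adjusted p = 0.00446). On TPM, tested with limma, the KCNQ3 call was lost (-0.15, adjusted p = 0.151). The 2 groups did not overlap for KCNQ3 in CPM, but most of its transcript was still present. All 8 biliary epithelial markers examined were detected, KRT7 among them at 1404 CPM in NC, and 5 of them were higher in sgKCNQ3. The hepatocyte markers ALB, APOA1, TTR and CYP3A4, all 4 endothelial markers and the leukocyte markers PTPRC, CD3E, CD14 and CD79A were at or near 0. Of other cell type genes, CD68, a lysosomal protein gene, fell from 89.98 to 74.5 CPM, and the fibroblast genes COL1A1 and PDGFRB stood at 5.97 and 2.56 CPM in NC with no call. Levels are given as CPM, counts scaled to a common library total with TMM factors, and are compared within a gene. Comparisons between genes use the deposited TPM, which is also scaled by transcript length.

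Of the 48 genes, 46 had enough reads to be tested. In sgKCNQ3, 28 were lower, 3 were higher and 15 were not called (edgeR quasi-likelihood test, adjusted p below 0.05). Called genes were thus 67.4% of those tested, against 29.1% of all 12565 tested genes, and lower calls were 60.9% against 15.1%. The background for higher calls was 14%. Because members were chosen with earlier results of these data known, these shares describe the set and are not a test. The median log2 fold change was -0.14, against -0.00739 over all tested genes. The CPM of the groups did not overlap for 37 of the 46, against 41.7% of all tested genes, and for 31 of the 46 the sgKCNQ3 libraries all lay below NC, against 21.3% of all tested genes. Effects were small: the log2 fold changes ran from -0.54 (ATF5) to 0.32 (NUPR1), and 1 of the 46 reached 0.5 in size. Without NC library 3 or sgKCNQ3 library 1 the higher calls were 1. The split depended on scaling. With library size alone it was 22 lower and 6 higher, with 1280 lower and 2324 higher over all genes, against 1895 and 1763 with TMM. On the deposited TPM, tested with limma, it was 13 lower and 6 higher, with 613 and 2588 over all genes. With each TPM library centred on its median gene, it was 22 lower and 2 higher, with 1320 and 1253 over all genes. That centring was chosen after seeing the data.

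**Figure D1:**
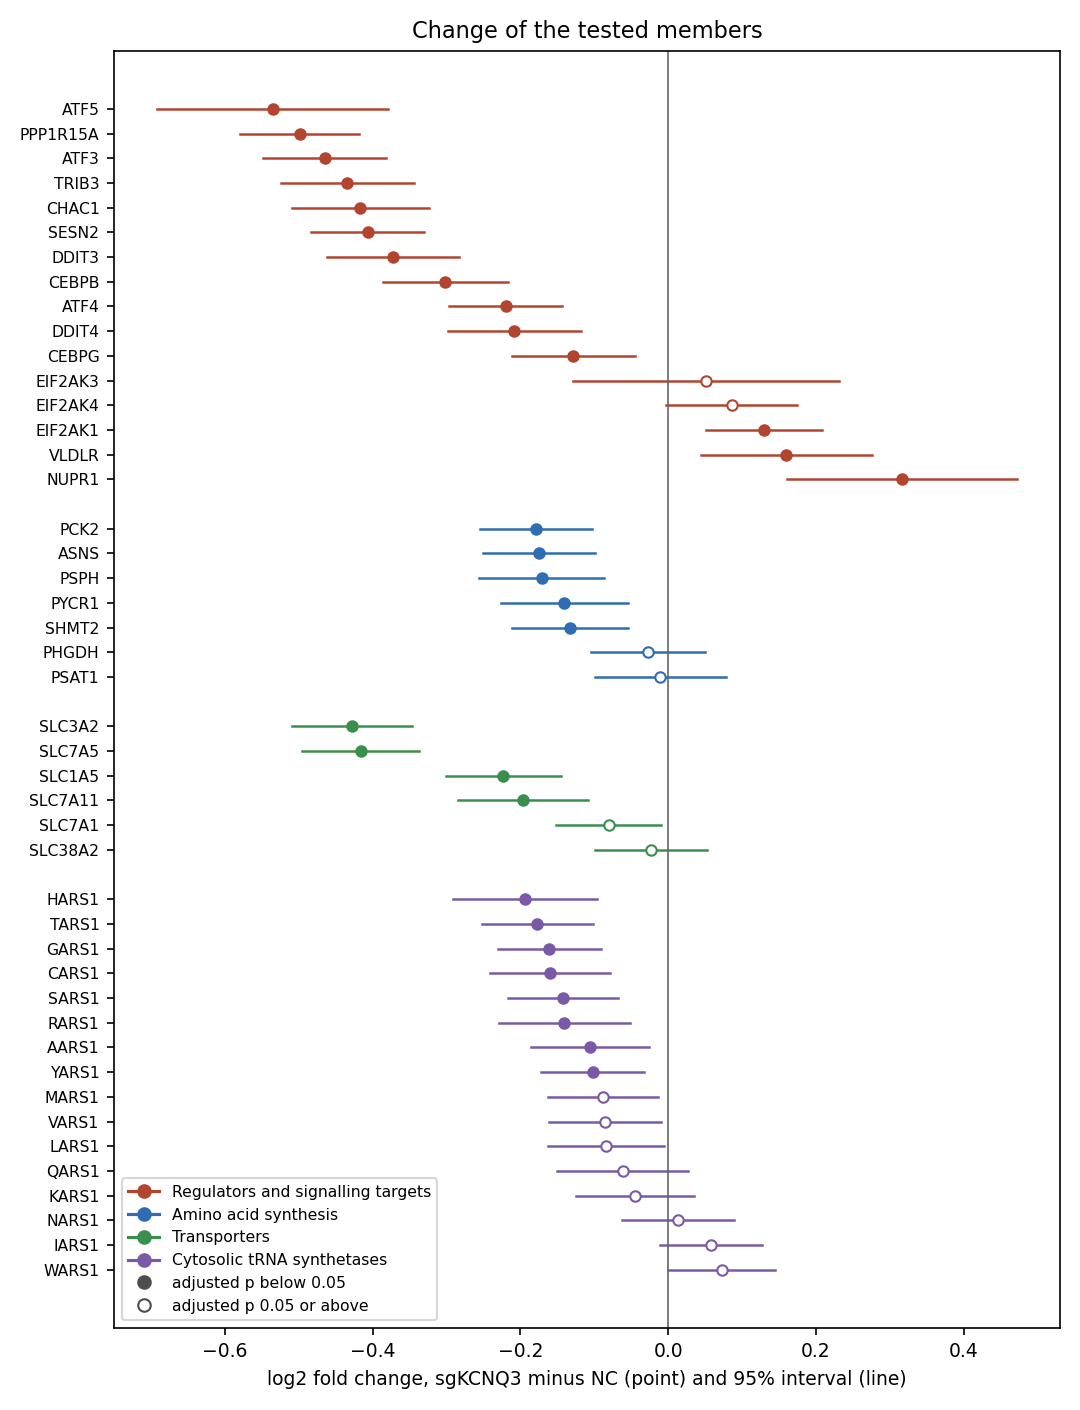
Log2 fold change (sgKCNQ3 minus NC, x axis) of the tested genes with their 95% intervals, grouped and coloured by role. Filled points passed an adjusted p of 0.05; the bZIP factors and most feedback genes lie left of 0, and NUPR1 (0.32) lies furthest to the right.

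The 3 eIF2 alpha kinases of the set, which start the response, were not lower. EIF2AK1 encodes HRI, the kinase that senses haem shortage and mitochondrial stress. It was at 173, 176 and 173 CPM in NC and 193, 186 and 193 CPM in sgKCNQ3, a log2 fold change of 0.13 (SE 0.0381, adjusted p = 0.0117). The sgKCNQ3 libraries all lay above the NC libraries, but the call was lost without NC library 3 (adjusted p = 0.0592) or without sgKCNQ3 library 1 (0.0539). EIF2AK1 overlaps AIMP2 on the opposite strand by 1591 bases, and AIMP2 was lower. EIF2AK4 encodes GCN2, the kinase that senses uncharged tRNA, and stood at 95.8 ± 2.91 CPM in NC and 102 ± 1.90 in sgKCNQ3 (SD, n = 3, adjusted p = 0.136). Its groups did not overlap, and it was called higher with library size alone (0.12, adjusted p = 0.0348) and on TPM with limma (0.17, adjusted p = 0.0222). With length and GC trends removed in edgeR, its estimate was 0.025 (adjusted p = 0.672). EIF2AK3, encoding the ER stress kinase PERK, was the least abundant regulator by TPM. It stood at 13.6 ± 0.745 CPM in NC, with a log2 fold change of 0.051 whose 95% interval ran from -0.13 to 0.23 (adjusted p = 0.694).

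All 6 bZIP factors of the set were lower, and for each of them the highest sgKCNQ3 library lay below the lowest NC library. ATF4 itself was the most abundant gene of the set, at 869 ± 19.8 TPM in NC and 788 ± 31.1 in sgKCNQ3 (SD, n = 3). Its CPM was 648, 663 and 676 in the NC libraries and 542, 586 and 578 in the sgKCNQ3 libraries. The log2 fold change was -0.22 (SE 0.0372, adjusted p = 8.45e-05). Its counts were fractional in 5 libraries, and 4 pseudogene loci carry its name in GENCODE 29, none of them in the deposited table, so reads shared with copies are an uncertainty for this gene.

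ATF3, a repressor and activator induced by many stresses, was at nearly one level in the sgKCNQ3 libraries. Its CPM was 161, 158 and 165 in NC and 117 in each of the 3 sgKCNQ3 libraries. The log2 fold change was -0.47 (SE 0.0402, adjusted p = 4.25e-09). ATF5, an ATF4 relative under the same translational control, fell by 31.0%, the largest change of the set, at 27.1, 23.4 and 24.3 CPM in NC and 17.7, 16.4 and 17.6 in sgKCNQ3 (log2 fold change -0.54, SE 0.0760, adjusted p = 1.00e-05). ATF5 lies within and beside genes on the opposite strand, NUP62 and IL4I1 among them, and how the counting treated strand was not stated. DDIT3 encodes CHOP, the factor tied to cell death under lasting stress. It was at 120.4, 129 and 123 CPM in NC and 97.4, 97.0 and 93.6 in sgKCNQ3, a log2 fold change of -0.37 (adjusted p = 5.37e-07). DDIT3 shares 982 bases with MARS1 on the opposite strand. The C/EBP partners differed in size: CEBPB changed by -0.30 (adjusted p = 5.66e-06) and CEBPG by -0.13 (adjusted p = 0.0184). The CEBPG groups were 187 to 195 CPM and 170.3 to 184 CPM, close to each other. Its call was lost without library 1 or library 3 of either group (adjusted p 0.0669 to 0.129).

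The 7 feedback and effector genes were all called, 5 lower and 2 higher. PPP1R15A encodes GADD34, the phosphatase subunit that removes the phosphate from eIF2 alpha and so ends the response. It was at 483, 527 and 492 CPM in NC and 348, 367 and 348 in sgKCNQ3, with a log2 fold change of -0.50 (SE 0.0391, adjusted p = 6.37e-10). TRIB3, a pseudokinase that ATF4 and CHOP induce and that restrains them, was at 771, 811 and 791 CPM in NC and 598, 536 and 622 in sgKCNQ3 (log2 fold change -0.43, adjusted p = 1.24e-07). At 626 TPM in NC it was among the 3 most abundant genes of the set. CHAC1, which degrades glutathione, fell by 25.1%, from 127 ± 3.29 to 95.1 ± 4.88 CPM (adjusted p = 1.60e-07).

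A pair of mTORC1 inhibitors belongs to this group. SESN2, which senses leucine, stood at 251, 246 and 251 CPM in NC and 191, 185 and 188 in sgKCNQ3, a log2 fold change of -0.41 (adjusted p = 1.14e-08). DDIT4 (REDD1) was at 395, 404 and 403 CPM in NC and 327, 378 and 335 in sgKCNQ3, a log2 fold change of -0.21 (adjusted p = 9.31e-04). For both genes every sgKCNQ3 library was below every NC library, with sgKCNQ3 library 2 the nearest to NC for DDIT4. NUPR1, a small stress-induced chromatin protein, went the other way, at 32.3, 32.9 and 31.3 CPM in NC and 38.7, 46.1 and 35.4 in sgKCNQ3 (log2 fold change 0.32, adjusted p = 0.00294). VLDLR, a lipoprotein receptor that ATF4 can induce, was at 39.4 ± 0.803 and 44.1 ± 2.00 CPM (log2 fold change 0.16, adjusted p = 0.0345). Its call was lost without any of the NC libraries or sgKCNQ3 libraries 1 and 2 (adjusted p 0.0570 to 0.109), and in DESeq2 (0.117).

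**Figure D2:**
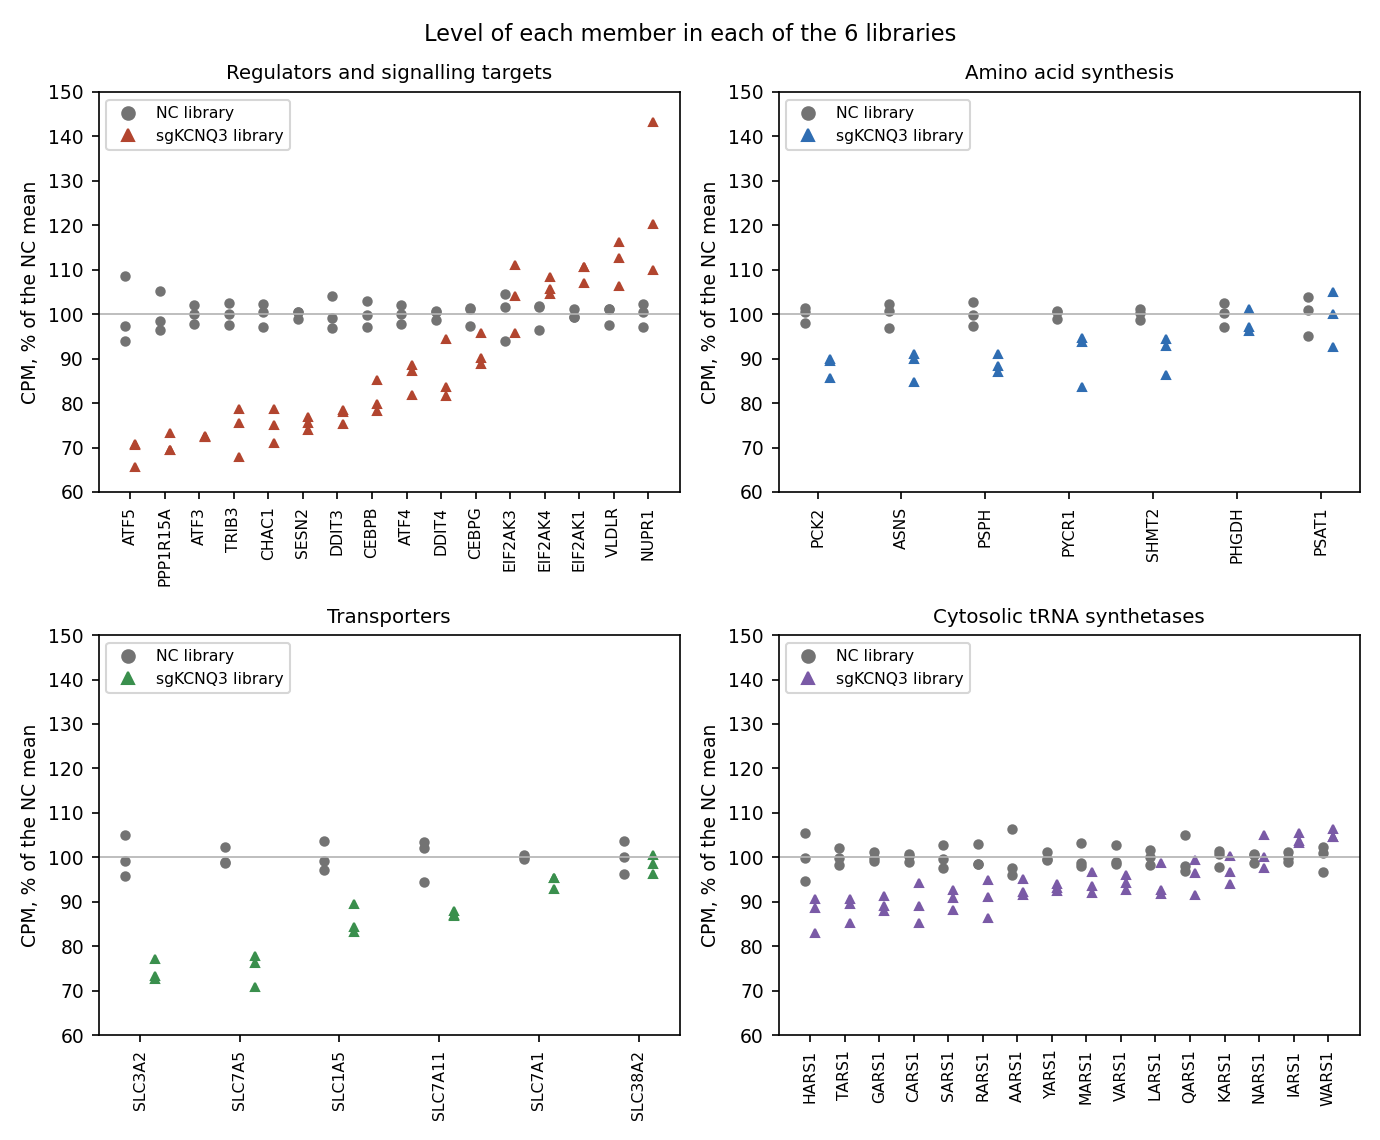
CPM of the tested genes in each of the 6 libraries as a percentage of the NC mean of that gene (y axis), in 4 panels by role; circles are NC and triangles sgKCNQ3 libraries. ATF5, PPP1R15A and ATF3 show triangles well below the circles, and NUPR1 shows the widest spread among triangles (35.4 to 46.1 CPM).

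Of the 9 amino acid synthesis genes, 7 were tested, 5 were lower and none was higher (median log2 fold change -0.14). None of these genes, of the transporters or of the synthetases was higher at an unadjusted p under 0.05 in the main edgeR fit, or in DESeq2. On TPM with limma, and in edgeR with library size alone, 2 synthetases were called higher. In edgeR with length and GC trends removed, 1 was. ASNS, which makes asparagine and is a standard readout of ATF4, was the second most abundant gene of the set at 664 TPM in NC. Its CPM was 849, 816 and 862 in the NC libraries and 757, 714 and 767 in sgKCNQ3, a log2 fold change of -0.18 (SE 0.0368, adjusted p = 8.67e-04). The groups were separate, but the change was smaller than that of TRIB3 or CHAC1. PCK2, the mitochondrial enzyme that feeds phosphoenolpyruvate into serine synthesis, was at 336 ± 5.65 and 297 ± 7.99 CPM (adjusted p = 7.01e-04). PCK2 lies wholly over NRL on the opposite strand. PYCR1, the mitochondrial proline enzyme, and SHMT2, which converts serine to glycine in mitochondria, changed by -0.14 and -0.13 (adjusted p = 0.0133 and 0.0104). The call of PYCR1 was lost without NC library 3 (0.0560) or sgKCNQ3 library 2 (0.100), and that of SHMT2 without sgKCNQ3 library 3 (0.103).

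The 3 enzymes of the serine branch from glycolysis did not move alike. PHGDH, which commits carbon to the branch, stood at 295 ± 7.88 CPM in NC and 289.8 ± 7.86 in sgKCNQ3, with a 95% interval of the log2 fold change from -0.10 to 0.050 (adjusted p = 0.628). PSAT1, the next enzyme, was at 508, 479 and 523 CPM in NC and 504, 529 and 466 in sgKCNQ3. Its groups overlapped fully, and the interval ran from -0.099 to 0.078 (adjusted p = 0.876). PSPH, the last enzyme, was lower at 149 ± 4.05 and 132 ± 3.08 CPM (log2 fold change -0.17, adjusted p = 0.00267). Whether PSPH differs from PHGDH and PSAT1 in its change was not tested.

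The mitochondrial folate enzymes MTHFD2 and ALDH1L2 were not tested because they were almost uncounted. MTHFD2 had 6, 8 and 4 reads in NC and 3, 3 and 2 in sgKCNQ3. ALDH1L2 had 2, 5 and 0 reads in NC and 0, 1 and 3 in sgKCNQ3. In GENCODE 29, 7 pseudogene loci carry the name of MTHFD2, and none is in the deposited table, so its count is uncertain where reads are shared with copies. SHMT2, in the same compartment, was at 331 TPM in NC.

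Of the 6 transporter genes, 4 were lower and none was higher (median log2 fold change -0.21). SLC7A5 and SLC3A2 encode the light and heavy chains of the leucine exchanger LAT1, and both fell by nearly the same amount. SLC7A5 was at 509, 528 and 511 CPM in NC and 394, 365 and 401 in sgKCNQ3 (log2 fold change -0.42, SE 0.0386, adjusted p = 1.36e-08). SLC3A2 was at 461, 506 and 478 CPM in NC and 353, 372 and 350.1 in sgKCNQ3 (log2 fold change -0.43, SE 0.0395, adjusted p = 1.30e-08). For both, the gap between the groups was wider than the range within either group. The heavy chain was the more abundant per length, at 437 TPM against 199.7 TPM for SLC7A5 in NC. SLC7A11, the cystine importer that shares this heavy chain, was at 149, 138 and 151 CPM in NC and 127, 127 and 129 in sgKCNQ3 (log2 fold change -0.20, adjusted p = 0.00115). SLC1A5 (ASCT2), which exchanges glutamine, was at 643 ± 21.4 and 551 ± 21.9 CPM (log2 fold change -0.22, adjusted p = 8.90e-05). SLC7A1, the cationic amino acid carrier with an ATF-C/EBP match printed above, was at 539 ± 2.09 and 510.1 ± 7.64 CPM and was not called (log2 fold change -0.081, adjusted p = 0.0805). SLC38A2, the sodium-coupled carrier SNAT2, was at 544, 506 and 525 CPM in NC and 528, 505 and 516 in sgKCNQ3, with overlapping groups (adjusted p = 0.678).

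Of the 17 synthetase genes, which charge tRNAs with amino acids, 8 were lower and none was higher, with a median log2 fold change of -0.088. The genes called lower were HARS1 (-0.19), TARS1 (-0.18), GARS1 (-0.16), CARS1 (-0.16), SARS1 (-0.14), RARS1 (-0.14), AARS1 (-0.11) and YARS1 (-0.10), with edgeR adjusted p from 6.75e-04 (TARS1) to 0.0413 (AARS1). GARS1 was the most abundant synthetase at 623 TPM in NC, and its CPM was 893, 911 and 899 in the NC libraries and 793, 823 and 802 in sgKCNQ3. TARS1 was at 567, 558 and 580.3 CPM in NC and 509, 516 and 484 in sgKCNQ3. In these examples the groups were apart by more than their ranges. HARS1, which overlaps HARS2 on the opposite strand by 437 bases, was at 106, 118 and 112 CPM in NC and 102, 99.4 and 93.1 in sgKCNQ3. AARS1 is the weakest call, at 617, 683 and 627 CPM in NC and 593, 610.3 and 587 in sgKCNQ3. Without NC library 2, the highest, its log2 fold change was -0.060 (adjusted p = 0.269), and it also missed the threshold without NC library 3 or sgKCNQ3 libraries 1 or 3. RARS1 was lost without NC library 1 or sgKCNQ3 libraries 1 or 3 (adjusted p 0.0566 to 0.118), and YARS1 without NC libraries 1 or 3 or sgKCNQ3 library 1 (0.0860 to 0.0940). Without sgKCNQ3 library 1 the synthetases called lower were 5.

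Among the synthetases not called, MARS1, VARS1, LARS1, QARS1 and KARS1 had estimates of -0.088 to -0.045, and NARS1, IARS1 and WARS1 of 0.013, 0.058 and 0.072. IARS1 was at 879, 898 and 886 CPM in NC and 919, 937 and 916 in sgKCNQ3, so that its sgKCNQ3 libraries all lay above NC (adjusted p = 0.205). MARS1, LARS1, QARS1, KARS1, RARS1 and IARS1 belong, with EPRS1, to the multi-synthetase complex, and of these RARS1 was called. Scaling weighed most on this group. With library size alone 5 synthetases were lower and 2 higher, on TPM 0 and 2. With library size alone the genes called higher were IARS1 and WARS1. The summed TPM of the 17 was 4464 ± 66.6 in NC against 4463 ± 9.15 in sgKCNQ3 (SD, n = 3), while that of the regulators was 3425 ± 64.9 and 2919 ± 67.1. The sums were 2398 ± 55.1 and 2319 ± 50.8 for the synthesis genes and 1421 ± 38.5 and 1245 ± 36.9 for the transporters. Only the regulators' and the transporters' sums were apart between the groups. Calls on TPM over all genes were 613 lower and 2588 higher with limma, and these sums are not corrected for that shift.

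**Figure D3:**
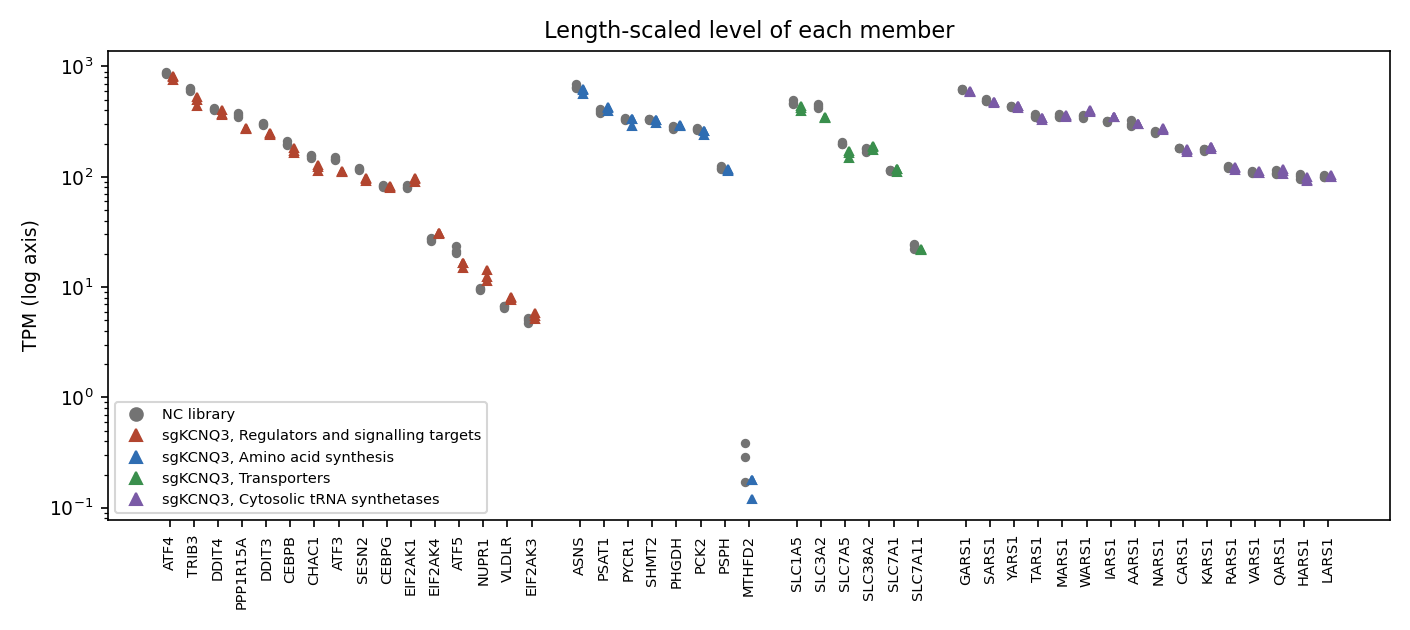
TPM (log axis) of the counted genes in each library, grouped by role; grey circles are NC and coloured triangles sgKCNQ3 libraries. ATF4 (869 TPM in NC), ASNS (664), TRIB3 (626) and GARS1 (623) are at the top and MTHFD2 (0.283) at the bottom; ALDH1L2, at 0 in some libraries, is left out.

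Changes of genes with and without the promoter match are given side by side, and the difference was not tested. Of the 11 genes with a TGATGNAA match, 7 were lower and none higher, with a median log2 fold change of -0.16, and of the 25 tested genes with a window and no match, 16 were lower and 1 higher, also with a median of -0.16. Outside the set, 160 tested genes had a match, of which 24 were lower and 26 higher (16.3%). Of the 10158 tested genes outside the set with a window and no match, 15.1% were lower and 13.6% higher. Among the synthetases with a match, AARS1, CARS1 and TARS1 were called and IARS1, MARS1 and NARS1 were not, although all 6 carry the same TGATGCAA.

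Transcript length and base composition moved with the comparison in these libraries. Across 12515 tested genes, the log2 fold change correlated with transcript length (Spearman's rho 0.32) and with GC content (-0.26), a description over genes that share the same 6 libraries. Deviations of each library from the gene means correlated with length at -0.18, -0.33 and -0.24 in NC and 0.28, 0.22 and 0.26 in sgKCNQ3. With GC the values were less even, at -0.029, 0.45 and 0.14 in NC and -0.21, -0.28 and -0.088 in sgKCNQ3. NC library 2 stood furthest from 0 for GC. The tested genes of the set are shorter and richer in GC than average, with medians of 2793 bases and 51.6% GC against 3484 bases and 48.5% GC. With each library's length and GC trend removed, 26 genes were lower and 3 higher, against a background of 15.9% lower and 10.5% higher, and the median was -0.13. The regulators then had 10 lower and 2 higher with a median of -0.18, and all 6 bZIP factors were lower. The loss was DDIT4 (-0.13, adjusted p = 0.0595), and VLDLR was no longer called higher (0.025, adjusted p = 0.765). Among the synthesis genes, PYCR1 (-0.051, adjusted p = 0.349) and SHMT2 (-0.089, adjusted p = 0.0565) lost their calls, which left 3. The transporters moved the other way: all 6 were lower, with a median of -0.26, as SLC7A11 went to -0.37 (adjusted p = 4.79e-08), SLC7A1 to -0.16 (adjusted p = 2.78e-04) and SLC38A2 to -0.10 (adjusted p = 0.0142). Among the synthetases 7 were lower and 1, WARS1, was higher (0.090, adjusted p = 0.0329), while LARS1 became a lower call (-0.15, adjusted p = 0.00225) and AARS1 and YARS1 were lost. CEBPB (-0.20), PCK2 (-0.11, adjusted p = 0.0133) and SARS1 (-0.090, adjusted p = 0.0345) stayed lower with smaller estimates.

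**Figure D4:**
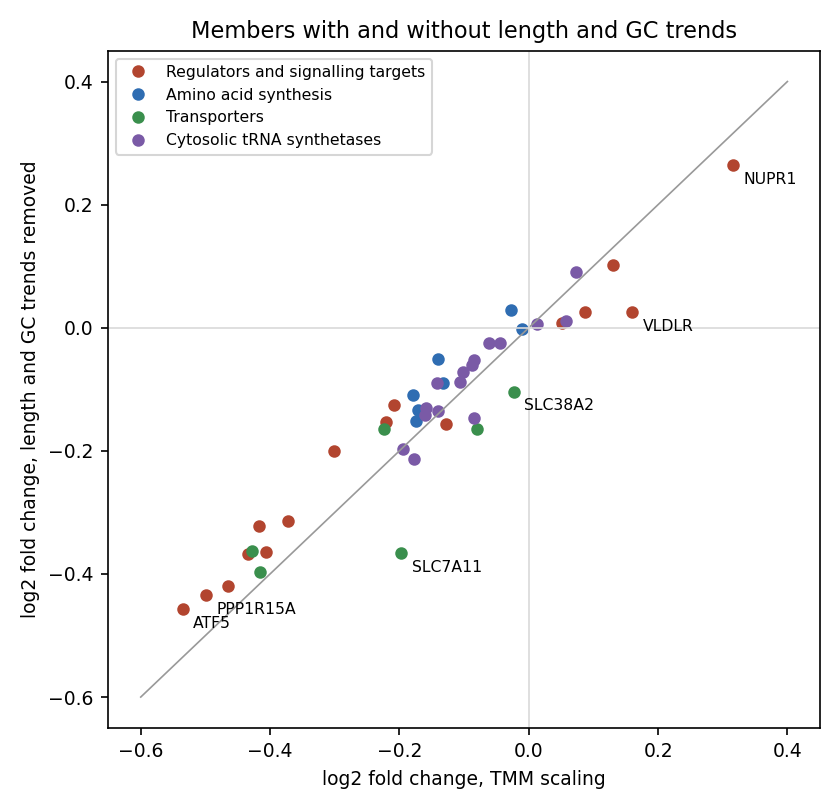
Log2 fold change of the tested genes with TMM scaling (x axis) against the same with length and GC trends removed (y axis), coloured by role, with the line of equality. Most points lie near the line; SLC7A11 drops below it (-0.20 to -0.37), and CEBPB (-0.30 to -0.20) and CHAC1 (-0.42 to -0.32) lie above it.

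Other genes of the pathway were read from 10 lists, with no test on a list. Over all tested genes, 15.1% were lower and 14% higher. Of 32 tested further ATF4 or CHOP targets, 12 were lower and 4 higher (median log2 fold change -0.11). STC2, a secreted glycoprotein of the ER stress response, changed by -0.61 (adjusted p = 2.58e-11), GADD45A, a growth arrest gene, by -0.62 (adjusted p = 3.92e-10), and GDF15, a stress cytokine, by -0.42 (adjusted p = 1.30e-08). TXNIP, an inhibitor of thioredoxin and glucose uptake, rose by 0.40 (adjusted p = 2.65e-08). The list's members thus ran in both directions. Of 27 tested bZIP genes that can pair with ATF4 or C/EBP factors, or are close relatives of these partners, 11 were lower and 2 higher (median -0.10). They included the small MAF proteins MAFF (-0.58, adjusted p = 4.88e-10) and MAFK (-0.35, adjusted p = 3.19e-06), the AP-1 subunit FOSL1 (-0.36, adjusted p = 5.87e-08) and the repressor NFIL3 (-0.43, adjusted p = 1.73e-07). With length and GC trends removed, these bZIP genes gave 10 lower and 5 higher calls, and the further targets 13 and 2.

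Upstream of ATF4, a list of 19 genes gave 4 lower and 2 higher calls (median -0.020). It holds the eIF2 complex, its exchange factor eIF2B, the eIF2 phosphatase and related genes (EIF2AK2, EIF2A, GCN1, IMPACT, DELE1, OMA1 and NCK1). Called genes were 31.6% of this list, near the 29.1% of all tested genes. EIF2AK2, the kinase PKR that senses double-stranded RNA and the one member of the kinase family outside the set, was higher (0.24, adjusted p = 5.33e-04). With length and GC trends removed its estimate was 0.083 and the call was lost (adjusted p = 0.164). EIF2B2 (-0.18, adjusted p = 0.00191), EIF2S2 (-0.16, adjusted p = 0.00332) and PPP1CA (-0.15, adjusted p = 0.00629) were lower. PPP1CA, which encodes a catalytic partner of PPP1R15A, was also lost with the trends removed (-0.056, adjusted p = 0.217). In the ATF6 and IRE1 arms of the unfolded protein response, 5 of 24 genes were lower and 3 higher (median -0.037). The called share, 33.3%, was also near the 29.1% of all tested genes. The chaperone HSPA5 (BiP) was lower at 2629 and 2095 CPM (-0.33, adjusted p = 4.65e-07), as were HERPUD1 (-0.30, adjusted p = 7.71e-06) and XBP1 (-0.23, adjusted p = 1.06e-04), whereas SEL1L, of the same ER-associated degradation machinery as HERPUD1, was higher (0.34, adjusted p = 2.20e-06, and 0.20 with the trends removed). HERPUD1 also stands on the list of further ATF4 targets.

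The metabolic lists differed among themselves. Of 18 tested further enzymes of amino acid synthesis and breakdown, 10 were lower and 2 higher (median -0.13). GOT1, the cytosolic aspartate aminotransferase, changed by -0.45 (adjusted p = 9.18e-10), ASL, of arginine synthesis, by -0.40 (adjusted p = 1.10e-05) and GOT2, the mitochondrial aminotransferase, by -0.18 (adjusted p = 0.00109). Of 17 tested further serine, glycine and folate enzymes, 4 were lower and 2 higher (median -0.035). AHCY (-0.19), MTHFD1L (-0.18) and GLDC (-0.23) were lower, and MAT2A, which makes S-adenosylmethionine, was higher (0.20, adjusted p = 3.64e-04). Of 18 tested further amino acid transporters, only SLC1A4 (-0.13, adjusted p = 0.0276) and SLC25A22 (-0.16, adjusted p = 0.0282) were called, both lower, and the median was 0.012. SLC25A22 was lost with length and GC trends removed (-0.091, adjusted p = 0.149), which left 1 call on the list. That count stands beside the 4 of 6 transporters in the set, a difference not tested.

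The synthetase genes outside the set changed little. Of the 17 mitochondrial synthetases, 1 was lower, EARS2 (-0.18, adjusted p = 0.0372), and none higher (1 at an unadjusted p under 0.05, none in DESeq2), with a median log2 fold change of 0.0068. Their summed TPM was 436 ± 6.28 in NC against 464 ± 7.82 in sgKCNQ3 (SD, n = 3), higher in each sgKCNQ3 library than in any NC library. Over all genes, calls on TPM with limma were 613 lower and 2588 higher, and the sum is not corrected for that shift. Whether these genes rose beyond it was not tested. Of 8 genes for scaffold proteins of the multi-synthetase complex and cytosolic synthetases with other symbols, 1 was lower, the scaffold AIMP2 (-0.18, adjusted p = 0.00194, and -0.11 with length and GC trends removed). Downstream, among 25 genes that carry amino acid signals to mTORC1, 2 were lower and 3 higher (median -0.031). SESN3, a relative of SESN2, rose by 0.87 (adjusted p = 8.97e-07) from 5.99 to 10.99 CPM, and CASTOR2, an arginine sensor subunit, by 0.34 (adjusted p = 0.00279). DDIT4L, a relative of DDIT4, changed by -1.05 (adjusted p = 0.00281) at 1.84 and 0.881 CPM, and SEC13 by -0.14 (adjusted p = 0.0161), a call lost with length and GC trends removed (-0.072, adjusted p = 0.181). SESN2 and SESN3 thus stood on opposite sides of 0.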

How the data were processed

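Poly(A) RNA was read after random priming, per the labels' protocols, in 3 NC and 3 sgKCNQ3 libraries, grouped by title. The authors deposited 1 table of 16200 genes with estimated counts (expected counts) per gene, not normalized, 5.52% to 6.33% of which per library were not whole. Per the file headers it also holds TPM and FPKM, a signal column per library and group means, some as a whole-number score. Per the submitters' processing notes, the genome build was GRCh38.p13. How reads were aligned and counted, with regard to strand and to multiple mapping, was not given in the sources used here. Per-sample columns left unmapped numbered 0.

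Counts were rounded and tested with edgeR 4.0.16 (R 4.3.3): filterByExpr (minimum count 10, 12565 genes kept, 3635 removed), TMM, robust quasi-likelihood fits and F tests, and Benjamini-Hochberg adjustment over all tested genes at 0.05. The biological coefficient of variation was 3.62%. An exact permutation test of 3 against 3 cannot go below 0.1, so p-values rest on this model. Chi-square per degree of freedom for pairs of libraries was 1.63 to 4.17 within groups and 6.86 to 11.3 between them, so none was counted as a duplicate. Alternatives were RLE and library-size scaling, DESeq2 1.42.0, limma 3.58.1 on log2(TPM + 1) of the deposited TPM, 2 filters, a replicate block, removal of length and GC trends (natural splines with 5 degrees of freedom as offsets, GENCODE 29 transcripts) and leaving out each library. The last TPM alternative, each library centred on its median gene, was chosen after seeing the data. The procedure was tested on simulated data. FPKM, normalized read count and group mean columns entered no test.

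Every member could be named, as could KCNQ3 and, from each further list, up to 4 called genes with the smallest p. The genes that mark cell types, and any gene beyond this rule, are given for description. Single values of 3 genes that enter the counts are not reported here. Members and lists were chosen with earlier results of these data known. Overlaps and pseudogenes are from GENCODE 29 (GRCh38), promoter windows from RefSeq.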

Additional observations from a re-analysis of the deposited data

How the results depend on the processing

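No gene called in the main edgeR fit changed sign under any alternative run. Of the 31 calls, 14 held under every alternative: the lower calls of ATF4, ATF3, ATF5, DDIT3, TRIB3, CHAC1, SESN2, CEBPB, PPP1R15A, ASNS, SLC7A5, SLC3A2 and SLC1A5 and the higher call of NUPR1. Without each library in turn 23 held. RLE scaling and both filters changed no call. DESeq2 gave 2322 calls over all genes (1211 lower, 1111 higher) against 3658, and lost 2 of the 31; limma on TPM gave 613 lower.

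The lower calls were 13 on TPM and the higher calls 6 with library size alone or TPM, and without 1 library the higher calls were 1 to 3, for all members and for the regulators alike. Lower synthesis calls were 3 with library size alone, with length and GC trends removed (also with the block) and on centred TPM, and 1 on TPM. Lower synthetase calls were 5 with library size alone, 0 on TPM, 5 on centred TPM and 5 to 10 without 1 library; higher synthetase calls were 2 with library size alone, 2 on TPM and 1 with trends removed.

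Medians with library size alone and on TPM were -0.10 and -0.056 for all members, -0.22 and -0.18 for regulators, -0.10 and -0.065 for synthesis, -0.17 and -0.13 for transporters, and -0.052 and -0.00426 for synthetases. With trends removed, and with trends removed and the replicate block, they were -0.18 and -0.18 for regulators, -0.089 and -0.090 for synthesis, and -0.26 and -0.26 for transporters. Without 1 library they ran from -0.15 to -0.12 for all members, from -0.16 to -0.14 for synthesis and from -0.10 to -0.066 for synthetases.

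Estimates near 0, none called in the main edgeR fit, changed sign in other runs. On TPM these were PSAT1 (0.076), PHGDH (0.058), SLC38A2 (0.065), SLC7A1 (0.012), KARS1 (0.038), LARS1 (0.00744), MARS1 (4.14e-04) and QARS1 (0.026). With library size alone they were PSAT1 (0.025), PHGDH (0.00933) and SLC38A2 (0.014). With trends removed it was PHGDH (0.0289, and 0.0285 with the block). On centred TPM it was PSAT1 (0.00696). Some genes that changed sign on TPM were called lower in other edgeR runs. SLC7A1, SLC38A2 and LARS1 were called with trends removed, and MARS1 and LARS1 without sgKCNQ3 library 2 (adjusted p = 0.0212 and 0.0187). Without 1 library, estimates ran from -0.046 to 0.042 for PSAT1, from -0.049 to 0.00312 for SLC38A2 and from -0.00917 to 0.041 for NARS1. The cause of these shifts was not tested.

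The replicate block gave 3136 calls over all genes, and 27 members lower and 2 higher, with AARS1 and VLDLR lost. Deviations from the group means correlated at 0.00341, -0.0981 and -0.0295 for libraries of equal number, and at -0.0624 to 0.0832 for unequal numbers. Deviations within a group are not independent, so these values cannot settle whether equal numbers were paired. The KCNQ3 call was also lost on centred TPM (-0.22, adjusted p = 0.0550). MTHFD2 and ALDH1L2, with 8 reads or fewer in every library, were too sparsely counted to test.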
